A study of Saccharomyces cerevisiae with 10 samples.

Results

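The nuclear genes for mitochondrial ribosomal proteins of budding yeast (Saccharomyces cerevisiae) were followed in cells that lack SUA5. Members were taken by name: the annotated gene symbol is MRPL, MRPS, MRP or RSM followed by a number, and MRP8, which is not a ribosomal protein, was left out. This gave 65 of the 5449 genes tested, with 1 probe set each. By their known place in the mitochondrial ribosome 37 belong to the large and 28 to the small subunit. MRP7, MRP20 and MRP49 count as large subunit although their symbols lack the L.

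RNA from 10 cultures was hybridised to 1 Affymetrix yeast array each, and the deposited values are scaled linear intensities in arbitrary units. BY4742, a haploid laboratory yeast, served as wild type (3 arrays). The sua5D strains are haploid spores of mating type a from a BY4743 diploid heterozygous for the deletion. RNA was taken following a first restreak on YPD, a rich glucose medium (4 arrays, 35 generations from the spore by the labels), and following a 12th (3 arrays, 300 generations). By the series' design the arrays of each group are from clones independent of one another, and every culture was harvested in mid-log growth in liquid YPD. Whether the 12th restreaking continues the same clones as the first is not stated. BY4742 is of mating type alpha, so deletion of SUA5 and mating type cannot be told apart in any comparison with the wild type. The same holds for MET17, a gene of methionine synthesis, at the 12th restreaking: it read 4176 to 4381 in the wild type and 8.09 to 96.9 on the 12th-restreaking arrays. Arrays of the first restreaking also departed from wild type, some at MET17 and the others at LYS2, as given below.

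Mitochondrial ribosomes translate the few mRNAs of the mitochondrial genome, most of which encode subunits of the respiratory chain and ATP synthase. All but 1 of their proteins are made from nuclear genes and imported. Many descend from bacterial ribosomal proteins and the others have no bacterial counterpart. Sua5 makes the intermediate for the tRNA base threonylcarbamoyladenosine (t6A), in the cytosol and for mitochondrial tRNAs, to which Qri7 transfers it. QRI7 itself was 1.17-fold lower at the first restreaking and 1.26-fold at the 12th (adjusted p = 0.0225 and 0.0034 by limma), and its log2 changes of -0.23 and -0.34 became -0.74 and -0.76 after quantile normalization.

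The labels held. SUA5 read 520 ± 12.8 (SD, n = 3) on the wild-type arrays and 5.22 or less on the 7 deletion arrays. The 7 mating type a genes examined were all higher in the sua5D groups and the 5 alpha genes all lower. The clones of the first restreaking fell into pairs: LYS2 and MET17 read 2890 or more on replicates 3 and 4 and 15.6 or less on replicates 1 and 2. No 12th-restreaking array had either gene above 96.9, so between the sua5D groups LYS2 and MET17 differ along with restreaking in part of the arrays. On the wild-type arrays LYS2 read 10.9 to 17.4, while MET17 was high. Replicates 1 and 2 of the first restreaking thus departed from wild type at MET17, and replicates 3 and 4 at LYS2. What these differences add to the changes against wild type was not tested. All 65 members lay above the background limit on every array. The limit was the percentile 95 of 1746 probe sets for another yeast, 10.8 to 17.5, and the dimmest member was at least 9.23 times brighter. Replicates were close: the median SD of a member was 0.0759 on the log2 scale in the wild type, 0.0789 at the first restreaking and 0.0476 at the 12th. Precision is limited by the number of arrays, 3 or 4 a group, and by their scaling.

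Against the wild type, the genes of the mitochondrial ribosome moved little, and in both directions. Changes are given as differences of log2(intensity + 16), which understate changes of dim genes, and as the fold on that scale. A gene is called higher or lower when limma's test has an adjusted p under 0.05 over all genes tested. At the first restreaking 24 of the 65 members were higher and 17 lower, where 41.5% and 37.5% of all genes were. At the 12th restreaking 32 were higher and 11 lower, against 40.9% and 36.9% of all genes. Called in either direction were 63.1% of the members at the first restreaking and 66.2% at the 12th, below the 79.0% and 77.8% of all genes. Sizes were also smaller than in the whole table. The median absolute log2 change of the members was 0.203 at the first restreaking and 0.257 at the 12th, against 0.383 and 0.375 over all genes. A change of at least 1.5-fold was reached by 4 members in each comparison (6.15%), and by 31.7% and 30.7% of all genes. RSM10 was the 1 member past 2-fold. By intensity alone, 37 members at the first restreaking and 47 at the 12th had no overlap with the wild type (76.7% and 79.8% of all genes). Both comparisons share the wild-type arrays, so their counts are not independent of each other.

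**Figure D1:**
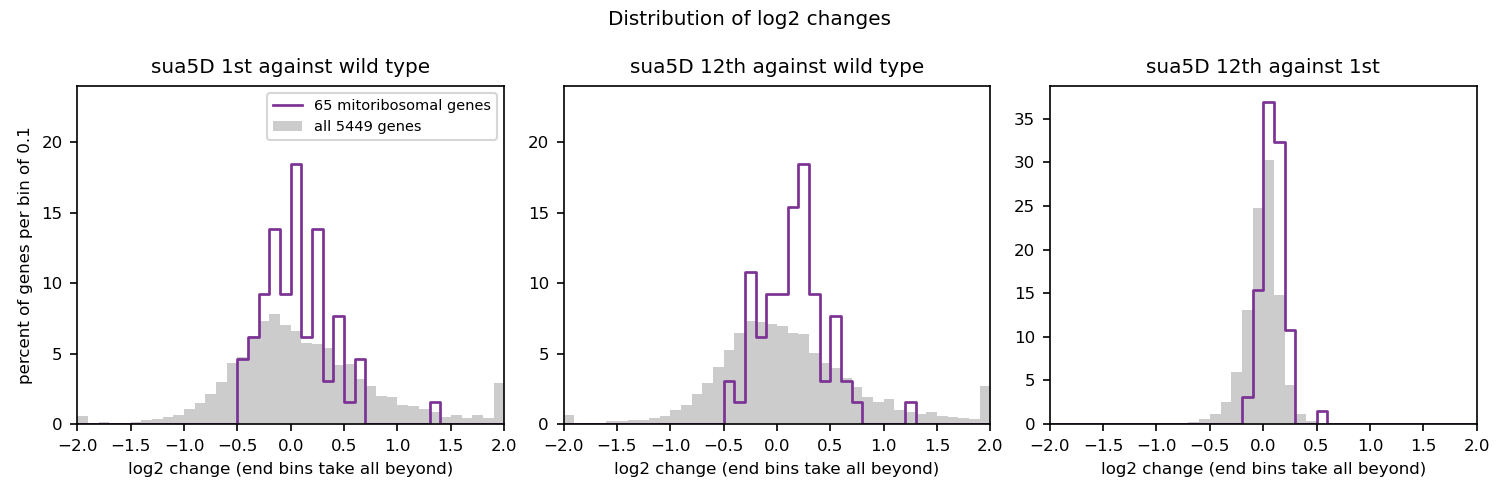
Share of genes (percent, vertical) per bin of log2 change (horizontal, bins of 0.1) for all 5449 genes (grey bars) and the 65 mitoribosomal genes (line), in the 3 comparisons. The members lie close to 0 in each panel, with RSM10 apart at 1.32 and 1.25 against wild type, and in the right panel RSM19 apart at 0.55.

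How many members counted as higher or lower depended on how the arrays were scaled. Over all tested genes the wild-type arrays had medians of 602 to 613, and the deletion arrays of 649 to 666. Setting these medians equal shifted all changes against wild type by a median of -0.113 (first restreaking) and -0.115 (12th) on the log2 scale. The members then split into 16 higher and 26 lower at the first restreaking and 25 and 16 at the 12th. Of all genes 35.7% were then higher and 45.5% lower at the first restreaking, and 34.4% and 43.9% at the 12th. After quantile normalization the split of the members was 13 and 33, and 21 and 19. The shares of all genes were 33.1% and 44%, and 32.8% and 42.1%. A smaller set held its call under all 3 scalings in both comparisons: 13 members higher and 10 lower. The higher ones were MRP49, MRPL9, MRPL10, MRPL25, MRPL28, MRPL36, MRPL38 and MRPL44 of the large subunit and RSM7, RSM10, RSM18, RSM28 and MRPS35 of the small. The lower ones were MRPL3, MRPL11, MRPL17 and MRPL32 of the large subunit and MRP4, MRP13, MRP51, MRPS18, MRPS28 and RSM27 of the small. MRP7, MRPL27, MRP2 and RSM24 were called under none of the 3 in either comparison. For these sets held under all 3 scalings, the matching shares of all genes are not given here.

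**Figure D2:**
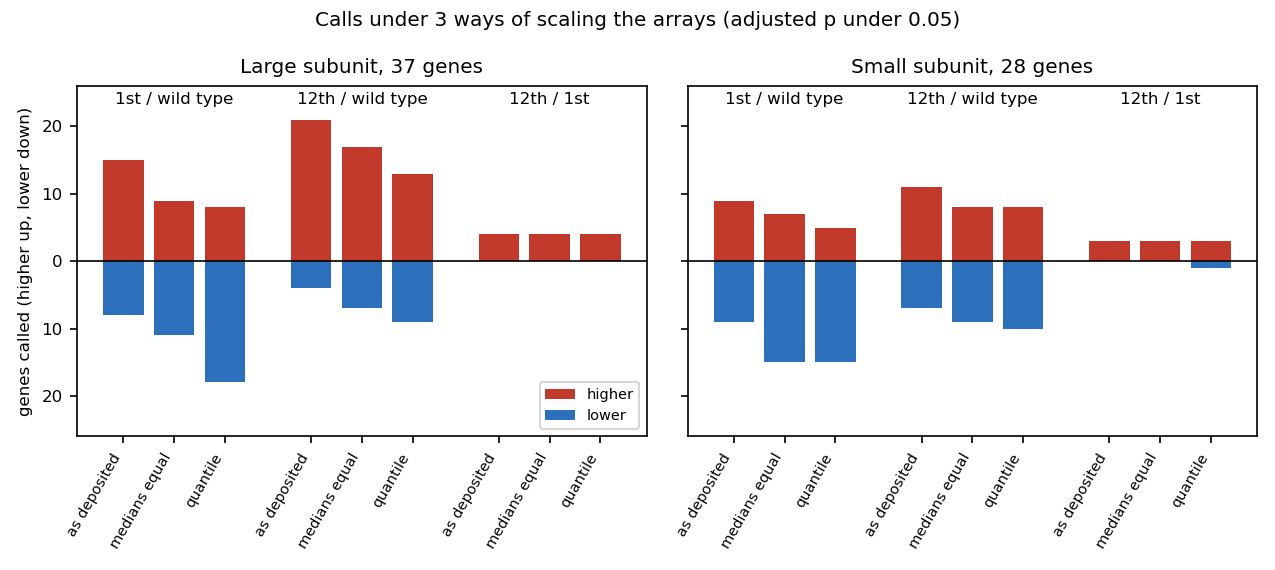
Number of members called higher (upward bars) or lower (downward bars) in each comparison, for the large subunit (left, 37 genes) and the small subunit (right, 28 genes), under 3 scalings of the arrays. For the first restreaking the large subunit goes from 15 higher and 8 lower as deposited to 8 and 18 after quantile normalization, while 4 and 3 members are higher at the 12th than at the first restreaking under each scaling.

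The subunits stood apart by a small amount on the deposited values. For each array the median of log2 values relative to the wild-type mean was taken over each subunit. The large subunit lay at -0.0363 to 0.00719 on the wild-type arrays, at 0.0601 to 0.143 at the first restreaking and at 0.175 to 0.206 at the 12th. The small subunit lay at -0.0588 to 0.0306, -0.112 to 0.00627 and 0.107 to 0.134. All genes together lay between 0.012 and 0.0431 on the 7 deletion arrays. The large subunit was thus above the small one at the first restreaking as deposited, with median log2 changes of 0.09 and -0.07. With array medians equal they were -0.02 and -0.18, and after quantile normalization -0.15 and -0.14, so the gap between the subunits is not seen under every scaling. No test was made of these medians, because the members were chosen with earlier results known.

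In the small subunit, 9 members were higher and 9 lower at the first restreaking, and 11 and 7 at the 12th. The gene that stood out was RSM10, the relative of bacterial S10. It read 962, 866 and 887 on the wild-type arrays. At the first restreaking it read 2347, 2431, 1997 and 2369, and at the 12th 2079, 2092 and 2337. All deletion arrays lay far above all wild-type arrays. The change was 2.49-fold at the first restreaking (log2 1.32 ± 0.068, SE, adjusted p = 5.22e-10 by limma) and 2.37-fold at the 12th (adjusted p = 2.16e-09 by limma). The 2 sua5D groups overlapped for RSM10, and their difference of -0.07 had a 95% interval of -0.22 to 0.07.

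RSM28, a small subunit protein without a bacterial relative, read 451, 459 and 448 in the wild type and 659 to 730 over the 7 deletion arrays. The groups did not overlap, and RSM28 was 1.53-fold higher at the first restreaking (adjusted p = 6.53e-08 by limma) and 1.49-fold at the 12th. RSM7, the relative of bacterial S7, which organises the head of the small subunit, rose from 489 ± 54.2 (SD, n = 3) to 733 ± 74.5 (n = 4) and 801 ± 37.0 (n = 3). That is 1.48-fold and 1.62-fold (adjusted p = 1.92e-05 and 5.46e-06 by limma), with replicate 1 the highest of the first restreaking at 844 and the others at 684 to 703. MRPS35, also specific to mitochondria, read 425, 416 and 412 in the wild type and 542 or more on each deletion array. It was 1.39-fold and 1.43-fold higher. RSM18, the relative of S18, rose 1.35-fold and 1.45-fold, from 943 ± 52.2 (SD, n = 3) to 1282 ± 48.5 (n = 4) and 1373 ± 57.0 (n = 3). MRPS5 and MRP17, relatives of S5 and S6, were 1.33-fold and 1.26-fold higher at the first restreaking, calls that ended after quantile normalization (adjusted p = 0.0523 and 0.381).

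**Figure D3:**
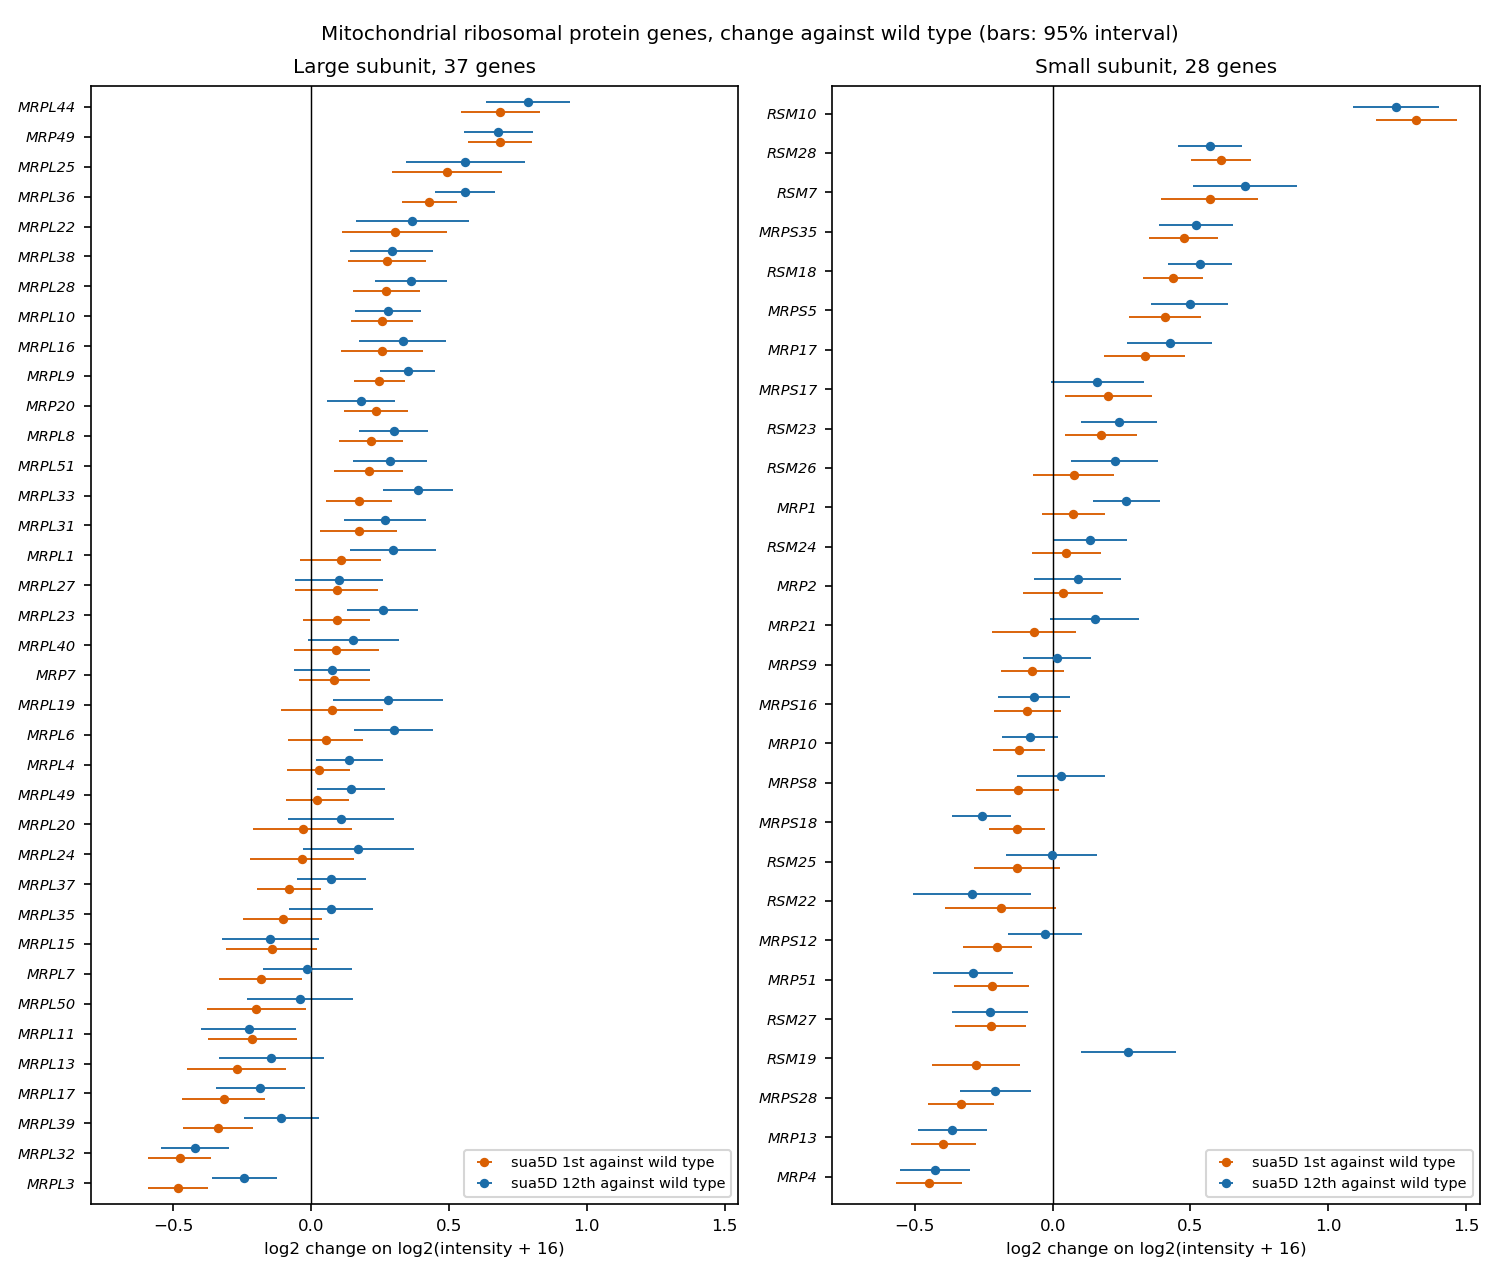
Log2 change against wild type (horizontal, on log2(intensity + 16)) of each large subunit gene (left) and small subunit gene (right), ordered by the change at the first restreaking, with points for the first (orange) and 12th restreaking (blue) and bars for the 95% interval. All genes but RSM10 (1.32 and 1.25) lie between MRPL3 at -0.48 and MRPL44 at 0.79, and RSM19 has its points on opposite sides of 0.

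The falls in the small subunit were led by MRP4, the relative of bacterial S2. It read 673, 714 and 643 in the wild type, 478 to 517 at the first restreaking and 473 to 515 at the 12th. Neither sua5D group overlapped the wild type, and MRP4 was 1.36-fold and 1.34-fold lower (adjusted p = 3.95e-06 and 1.4e-05 by limma). MRP13, specific to mitochondria, fell from 704 ± 38.7 (SD, n = 3) to 531 ± 25.2 (n = 4) and 544 ± 6.55 (n = 3), 1.32-fold and 1.29-fold. MRPS28, the relative of S15, fell from 548 ± 9.87 to 433 ± 24.5 and 473 ± 19.1, which is 1.26-fold and 1.15-fold. MRP51, the relative of S1 that is known to act with the leaders of mitochondrial mRNAs, was 1.17-fold and 1.22-fold lower. RSM22, a methyltransferase-like protein needed for small subunit assembly, read 249, 228 and 250 in the wild type and 174, 217 and 196 at the 12th restreaking, 1.22-fold lower (adjusted p = 0.0159 by limma). The RSM22 call was lost without replicate 1 of the 12th restreaking (adjusted p = 0.0804), and at the first restreaking RSM22 did not pass as deposited (adjusted p = 0.0795) but was lower with array medians equal and after quantile normalization (adjusted p = 0.00755 and 0.000162). MRPS12, the relative of the decoding protein S12, was 1.15-fold lower at the first restreaking and read 1233 ± 70.1 (SD, n = 3) at the 12th against 1258 ± 80.3 in the wild type.

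RSM19, the relative of bacterial S19, was the 1 member called in opposite directions. Its wild-type arrays read 657, 575 and 616. At the first restreaking it read 492, 473, 474 and 586, and at the 12th 714, 747 and 781. The 12th restreaking did not overlap either other group, while replicate 4 of the first restreaking lay inside the wild-type range. RSM19 lay 1.21-fold below wild type in the first group (adjusted p = 0.00354 by limma) and 1.21-fold above it in the 12th (adjusted p = 0.00612 by limma). The second of these calls ended when array medians were set equal (adjusted p = 0.0749) or quantiles were normalized (adjusted p = 0.07). The difference between the 2 sua5D groups did not depend on that: 1.47-fold higher at the 12th restreaking (log2 0.55 ± 0.074, SE, adjusted p = 0.00101 by limma), and log2 0.55 and 0.57 under the other scalings.

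In the large subunit, 15 members were higher and 8 lower at the first restreaking, and 21 and 4 at the 12th. MRPL44, specific to mitochondria, read 420, 439 and 430 in the wild type, 687, 653, 737 and 731 at the first restreaking and 674, 820 and 774 at the 12th. No deletion array overlapped the wild type, with rises of 1.61-fold and 1.73-fold (adjusted p = 3.61e-07 and 2.02e-07 by limma). MRP49, a large subunit protein that bacteria lack, read 803, 746 and 756 in the wild type. At the first restreaking it read 1245, 1161, 1212 and 1369, and at the 12th 1242, 1237 and 1236. It was 1.61-fold and 1.60-fold higher (adjusted p = 4.39e-08 and 1.14e-07 by limma), and no deletion array overlapped the wild type. MRPL36, the relative of L31, rose from 703 ± 25.0 (SD, n = 3) to 953 ± 40.6 (n = 4) and 1042 ± 6.98 (n = 3), 1.35-fold and 1.47-fold. MRPL25, specific to mitochondria, rose 1.41-fold and 1.47-fold. Its first-restreaking values did not overlap between the pairs of clones: 448 and 374 on replicates 1 and 2, 493 and 508 on replicates 3 and 4. The pairs lay apart in this way for 23 of the 65 members and for 46% of all genes.

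MRPL9 and MRPL16, relatives of L3 and L16 near the catalytic centre, were 1.19-fold higher each at the first restreaking and 1.28-fold and 1.26-fold at the 12th. The first-restreaking call of MRPL16 ended under both other scalings (adjusted p = 0.0561 and 0.073). MRPL22 and MRP20, relatives of the tunnel proteins L22 and L23, were 1.23-fold and 1.18-fold higher at the first restreaking and 1.29-fold and 1.13-fold at the 12th. After quantile normalization neither was called in either comparison (adjusted p = 0.101 to 0.59). With array medians equal the first call of MRPL22 (adjusted p = 0.0551) and the 12th call of MRP20 (adjusted p = 0.285) ended too. MRPL4, the relative of L29 beside the tunnel exit, read 352 to 376 in the wild type and 363 to 385 at the first restreaking, a log2 change of 0.03 (-0.21 after quantile normalization, adjusted p = 0.00201 by limma). At the 12th MRPL4 was higher as deposited (log2 0.14, adjusted p = 0.037 by limma) and not called under either other scaling. MRP7, the relative of L27, read 565 ± 35.7 (SD, n = 3), 600 ± 38.9 (n = 4) and 596 ± 12.3 (n = 3), with intervals of -0.04 to 0.21 and -0.06 to 0.21.

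The falls in the large subunit were led by MRPL3 and MRPL32. MRPL3, specific to mitochondria, read 736, 766 and 738 in the wild type, 517, 504, 537 and 563 at the first restreaking and 621, 619 and 646 at the 12th. The 3 groups did not overlap, with the 12th restreaking in between. The fall of MRPL3 was 1.40-fold in the first group (adjusted p = 7.8e-07 by limma) and 1.18-fold in the 12th (adjusted p = 0.000979 by limma). MRPL32, the relative of L32, which in yeast is matured by the m-AAA protease before assembly, read 753, 683 and 693 in the wild type and 474 to 535 on the deletion arrays. It was 1.39-fold and 1.34-fold lower (adjusted p = 1.53e-06 and 1.19e-05 by limma). The m-AAA protease genes had other values: YTA12 was 1.14-fold and 1.24-fold lower, and AFG3 had log2 changes of 0.01 (-0.10 with array medians equal, adjusted p = 0.0434) and -0.15, the second of which passed the test (adjusted p = 0.0077 by limma). MRPL39, the relative of L33, was 1.26-fold lower at the first restreaking and read 535 ± 32.2 (SD, n = 3) at the 12th against 578 ± 27.4 in the wild type (adjusted p = 0.13 by limma). With array medians equal or quantiles normalized MRPL39 was lower at the 12th too (log2 -0.22 and -0.24, adjusted p = 0.0039 and 0.00269). MRPL17 was 1.25-fold lower at the first restreaking and 1.14-fold at the 12th. The latter call was lost without any 1 array of the 12th restreaking or without wild-type replicate 1 or 3 (adjusted p = 0.0591 to 0.128). MRPL11, the stalk base protein related to L10, was 1.17-fold lower at the 12th restreaking, and the MRPL11 call was lost without wild-type replicate 3 (adjusted p = 0.109) or replicate 3 of the 12th (adjusted p = 0.0725).

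**Figure D4:**
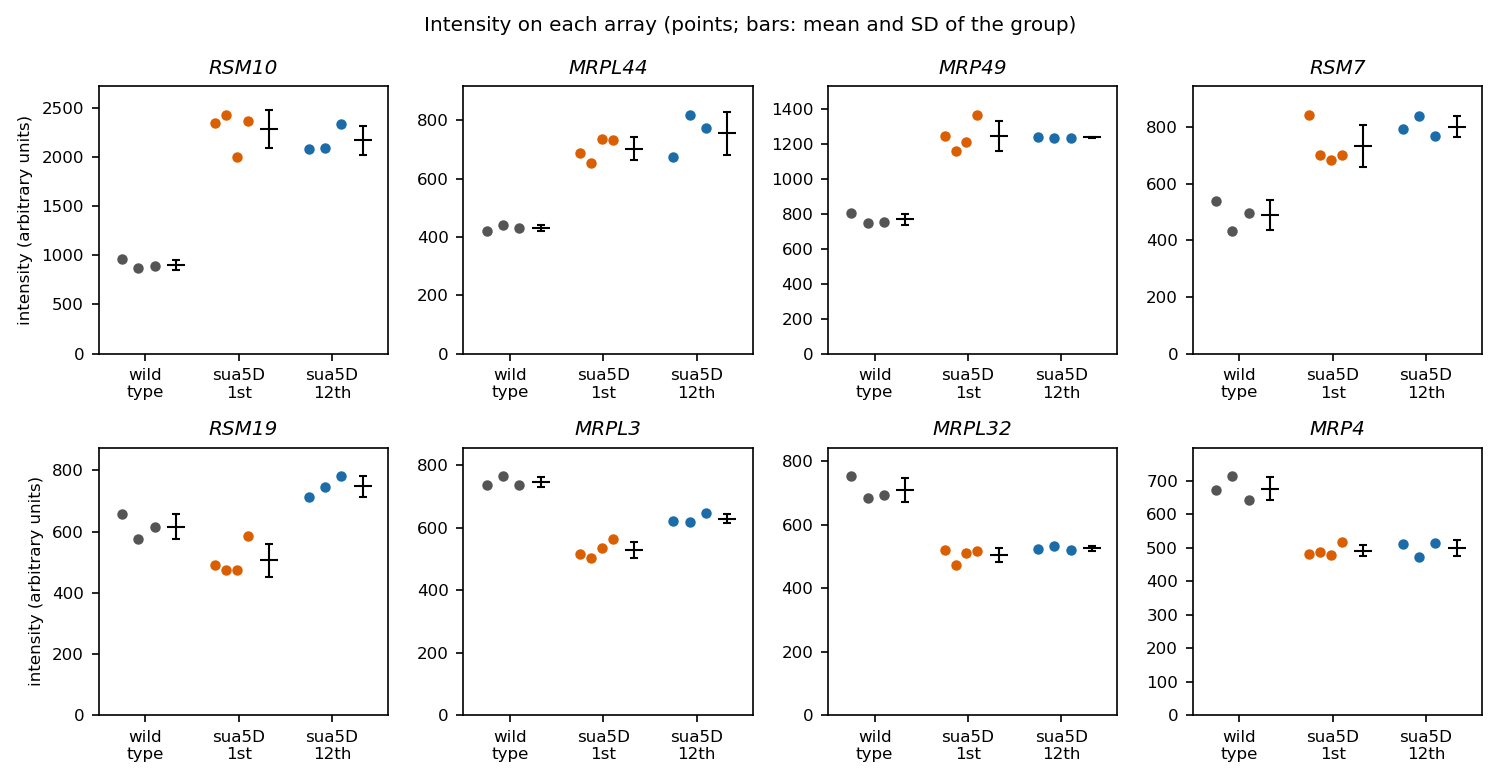
Intensity (arbitrary units, from 0) on each array for 8 members, with points for the arrays of the wild type (grey), sua5D first restreaking (orange) and sua5D 12th restreaking (blue), and black bars for each group's mean and SD. RSM10, MRPL44, MRP49 and RSM7 are higher on all deletion arrays, MRPL3, MRPL32 and MRP4 are lower on all of them, and RSM19 is lowest at the first and highest at the 12th restreaking.

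Proteins with and without a bacterial relative were found among both the higher and the lower members. Of the 23 large subunit proteins with a bacterial relative 9 were higher and 5 lower at the first restreaking, and of the 14 without one 6 and 3. In the small subunit 6 of 17 with a bacterial relative were higher and 6 lower, and 3 of 11 without one were higher and 3 lower. At the 12th restreaking these counts were 15 and 2, 6 and 2, 6 and 4, and 5 and 3. Of all genes 41.5% were higher and 37.5% lower at the first restreaking, and 40.9% and 36.9% at the 12th. After quantile normalization the first-restreaking counts were 4 and 11, 4 and 7, 3 and 10, and 2 and 5. Those at the 12th were then 7 and 5, 6 and 4, 5 and 6, and 3 and 4. No test was made between these classes.

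Some members had a 95% interval that kept to small changes, whether or not it included 0. MRP10 at the first restreaking (-0.22 to -0.03, called lower) and MRPL4 at the 12th (0.02 to 0.26, called higher) are counted here. As deposited, the 95% interval lay within 1.2-fold either way for 22 members at the first restreaking and 15 at the 12th. Of the 5449 genes tested 948 and 875 were so bounded. Under all 3 scalings 7 members were bounded in each comparison with wild type, and the matching share of all genes is not given here. MRP2, MRP7 and MRPL27 were among the 7 in both. Between the 2 sua5D groups 40 of the 65 members were so bounded, under all 3 scalings too. As deposited 3363 of the 5449 genes were, a similar share.

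Between the first and the 12th restreaking the mitoribosomal genes leaned upward. By limma 7 members were higher and none lower (10.8% called), where 6.83% of all genes were higher and 9.07% lower (15.9% called). At an unadjusted p under 0.05, 21 were higher and 1 lower, against 14.1% and 16.4% of all genes. No overlap between these groups was seen for 22 members (28.9% of all genes), and no member changed 1.5-fold (0.789% of all genes). Without a threshold, 53 of 65 members (81.5%) had a log2 change above 0, against 51.3% of all genes. Among lists described below, shares near this were 84.6% (further mitoribosomal proteins), 88.9% (mitochondrial DNA and transcription), 77.8% (mRNA activators) and 77.1% (respiratory chain). The lean was thus not particular to the members. Shares were smaller for mitochondrial aminoacyl-tRNA synthetases (69.2%), translation factors (61.5%), assembly factors (58.3%), cytosolic ribosomal proteins (45.7%) and retrograde genes (25%). The median change was 0.10 for the large and 0.08 for the small subunit, and 0.00 over all genes. The large subunit median was 0.10 under both other scalings, and the small subunit median 0.07 and 0.08. The called members were RSM19, MRPL6, MRPL3, MRPL39, MRP21, MRPL33 and MRP1.

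Of these, MRPL3 and MRPL39 had been below wild type at the first restreaking, and their 12th-restreaking values lay nearer to it. MRPL6, the relative of L6, read 328 to 356 in the wild type, 335 to 380 at the first restreaking and 401 to 445 at the 12th. At the first restreaking MRPL6 was not called against wild type as deposited (adjusted p = 0.446 by limma) and was lower after quantile normalization (adjusted p = 0.0172). It was 1.19-fold higher at the 12th than at the first restreaking (adjusted p = 0.0207 by limma). MRPL33, the relative of L30, read 461 ± 17.5 (SD, n = 3), 522 ± 17.3 (n = 4) and 608 ± 37.9 (n = 3), and the 12th was 1.16-fold above the first (adjusted p = 0.0229 by limma). Its first-restreaking call against wild type (adjusted p = 0.0105) ended under both other scalings (adjusted p = 0.31 and 0.892). MRP1, specific to mitochondria, read 551 to 628, 600 to 650 and 708 to 713, a rise of 1.14-fold between the sua5D groups (adjusted p = 0.0284 by limma). MRP21, the relative of S21, read 210 to 256 at the first and 265 to 282 at the 12th restreaking, 1.16-fold higher (adjusted p = 0.0497 by limma). Against wild type MRP21 was not called as deposited, and after quantile normalization it was lower in both comparisons (adjusted p = 6.12e-05 and 0.0471). RSM19 alone of the 7 kept its call when any 1 of the 10 arrays was left out. The number of members called higher then ranged from 2, without replicate 3 of the 12th restreaking, to 8, without replicate 1 of the first.

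The paired clones of the first restreaking can be set beside each other. The intensities of the pairs did not overlap for 23 members, 14 of them higher in replicates 1 and 2, while 46% of all genes did not overlap. The widest gap between the pairs was 0.302 on the log2 scale, at MRPL22, whose first-restreaking arrays read 514, 434, 378 and 382. Its change against wild type was 0.454 in the first pair and 0.153 in the second.

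Other parts of mitochondrial translation were read from lists written with earlier results of these data known. Of 13 further mitoribosomal proteins whose names do not follow the pattern, 2 were higher and 2 lower at the first restreaking (1 and 7 with array medians equal, 1 and 8 after quantile normalization). MHR1, also known for mitochondrial DNA recombination, was 1.31-fold higher. MNP1, the relative of bacterial L12, fell from 749 to 464 on average, 1.60-fold (adjusted p = 8.58e-07 by limma). EHD3, a mitochondrial hydrolase found in the small subunit, fell from 795 to 386 and 384, 2.02-fold at each restreaking.

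Of the translation factors 4 of 13 were higher and 4 lower at the first restreaking (2 and 8 after quantile normalization). GTF1, a subunit of the amidotransferase that makes mitochondrial glutaminyl-tRNA, was 2.26-fold higher. AIM23, the mitochondrial initiation factor 3, was 1.80-fold higher, and the elongation factor gene MEF1 1.69-fold lower. Mitochondrial aminoacyl-tRNA synthetases also split 4 and 4 of 13 (2 and 9 after quantile normalization), with SLM5 1.64-fold and MSK1 1.23-fold higher and MSE1 1.32-fold lower. Assembly and membrane factors split 5 and 3 of 12 (3 and 5 with array medians equal, 2 and 5 after quantile normalization), with the rRNA methyltransferase gene MRM1 1.80-fold higher and MRH4, a helicase for large subunit assembly, 1.68-fold lower. MAM33 was 1.57-fold lower.

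The activators of mitochondrial mRNAs, most of them proteins that promote translation or stability of 1 message, were higher in 11 of 18 cases and lower in 3. AEP1 and ATP22, which act on ATP synthase messages, were 1.95-fold and 1.97-fold higher at the first restreaking, and SOV1 1.67-fold. After quantile normalization this list split into 5 higher and 7 lower, and with array medians equal into 9 and 5. Genes for mitochondrial DNA and its transcription were lower in 6 of 9 cases and higher in none at the first restreaking by limma, also at an unadjusted p under 0.05 (8 lower after quantile normalization). The packaging protein gene ABF2 was 1.43-fold lower, RIM1, the single-strand binding protein, 1.37-fold, and the helicase gene PIF1 1.39-fold.

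Regulators with known links to mitochondrial genes had values of their own. HAP4, the activating subunit of the Hap complex that drives respiratory genes, read 964 on average in the wild type, 3843 at the first restreaking and 3581 at the 12th, 3.94-fold and 3.67-fold higher (adjusted p = 2.8e-14 and 1.16e-13 by limma). HAP2 and HAP5 were 1.61-fold and 1.83-fold higher at the first restreaking. HAP3 was not called there (adjusted p = 0.374 by limma) and had a log2 change of -0.27 after quantile normalization (adjusted p = 0.0095). At the 12th HAP3 was higher as deposited (log2 0.23, adjusted p = 0.0268 by limma). It was not called there under either other scaling (adjusted p = 0.243 and 0.373). PUF3, which binds mRNAs of many mitoribosomal proteins, read 66.9 on average in the wild type, 55.5 at the first restreaking (adjusted p = 0.093 by limma) and 51.9 at the 12th (adjusted p = 0.0412 by limma). For PUF3, a dim gene, the first-restreaking change passed the test with array medians equal (adjusted p = 0.0129) and after quantile normalization (adjusted p = 1.73e-06). Genes of the retrograde response, by which the nucleus answers mitochondrial dysfunction, were higher in 6 of 8 cases and lower in 1 in both comparisons. The lower one was ATO3, 1.26-fold at the first restreaking and 1.53-fold at the 12th. CIT2 read 1290 on average in the wild type and 5212 at the first restreaking, where RTG1 was 3.69-fold and DLD3 1.94-fold higher. Quantile normalization changed the size for several dim genes: at the first restreaking the log2 change of SOV1 went from 0.74 to 0.24, of SLM5 from 0.71 to 0.36, of MSE1 from -0.41 to -0.77 and of MRH4 from -0.75 to -1.26. Those of HAP2 and HAP5 went from 0.69 to 0.38 and from 0.87 to 0.50. Whether HAP4, PUF3 or retrograde levels have a part in the mitoribosomal values was not tested.

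The cytosolic ribosome is set beside the mitochondrial one. Of 127 cytosolic ribosomal protein genes 126 were lower and none higher at the first restreaking by limma (none higher at an unadjusted p under 0.05), with a median log2 change of -0.35, against 17 lower and 24 higher of the 65 mitochondrial ones. After quantile normalization 102 of the cytosolic genes were lower and none higher, beside 33 lower and 13 higher of the members. The cytosolic and member medians were -0.35 and 0.05 as deposited. They were -0.46 and -0.06 with array medians equal, and -0.20 and -0.14 after quantile normalization, so the gap depended on the scaling. Of 35 genes of the respiratory chain and ATP synthase 18 were higher and 10 lower (median 0.21). With array medians equal they were 15 and 12, and after quantile normalization 18 and 7 (median 0.19). The lists were set beside the members as a description, with no test of the difference.

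The members are spread over 14 chromosomes, with 12 on chromosome IV, and only MRPS12 and RSM19 are direct neighbours among the pairs of a member and its upstream gene. MRPS12 lies downstream of RSM19 on the same strand, and at the 12th restreaking RSM19 was above wild type while MRPS12 had a log2 change of -0.03. For 34 members the upstream neighbour runs in the opposite direction and was measured. Across these genes the changes of member and neighbour at the first restreaking correlated at r = 0.133 (Spearman -0.0483), and for 23 members with a measured neighbour on the same strand at r = 0.12, as a description over genes that share the arrays. An exception in size was RSM7, whose divergent neighbour YJR115W read 183 to 187 in the wild type and 862 to 1294 on the deletion arrays. RSM10 lies beside ENA1, which was not analysed here. Gene length, 213 to 1887 bases, correlated with the change at r = -0.0647 over the 65 members.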

How the data were processed

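The authors hybridised biotin-labelled material from total RNA to Affymetrix yeast arrays, per the labels' protocols, and deposited linear intensities, 1 for each probe set on an array. The software and the way probe sets were summarised are not given in the sources used here. The deposited intensities had been scaled, judging by their values: every array had the same trimmed mean (2% trimmed from either tail), 500.2. This makes arrays comparable only if the strains' mean signal is alike.

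Of 10928 probe sets, 5498 matched a gene of the R64 RefSeq gene table. The brightest probe set per gene left 5449 genes. Groups came from the sample titles. log2(intensity + 16) was tested with limma 3.58.1 in R 4.3.3 (a mean for each of the 3 groups, fitted on 10 arrays together; two-sided; eBayes with its trend on intensity; threshold 0.05 after Benjamini-Hochberg adjustment over all genes). Errors of fitted changes are limma's SE, and intervals are 95%. The test of the first restreaking against wild type was checked on simulated data with independent noise and most genes unchanged. No shift in the scale of arrays was simulated, so this check does not cover the dependence on scaling.

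The members, lists and tests were chosen with earlier results of these data known. Named members are the 4 largest rises and 4 largest falls per comparison and subunit among those past the threshold, and members called in opposite directions. Of other lists up to 3 genes with the smallest adjusted p are named. MRPS5, MRP17, MRPS12, MRPL4, MRPL9, MRPL16, MRPL22, MRP7, MRP20, YTA12, AFG3, ATO3, YJR115W, the neighbours, and the lists of cytosolic ribosomal proteins and respiratory chain were added after values were seen. The names MTG3, NAM1 and HMLALPHA2 were not matched. The closing section gives alternatives for pseudocount, scaling, filter, trend, samples, block and left-out arrays.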

Additional observations from a re-analysis of the deposited data

Results flagged for a closer look

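On 8 of the 65 members 1 array of the first restreaking lay far from the other 3, with a gap above Dixon's critical share of the range, and on 3 of the other named genes. Chance gives about 1 in 20 such groups. Replicate 1 was the highest for MRPL16 (744), MRPL17 (359), MRPL28 (750), RSM7 (844) and RSM23 (647), and the lowest for MRPL11 (617). Replicate 3 was the lowest for MRPL40 (256). Replicate 4 was the highest for RSM19 (586), EHD3 (429) and MEF1 (498), and replicate 2 the lowest for PUF3 (45.5).

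The change against wild type differed between the first and the 12th restreaking, by limma's test of the 12th against the first, for 7 members and 5 of the other named genes. On the log2 scale the differences were 0.553 for RSM19 (adjusted p = 0.00101), 0.246 for MRPL6 (adjusted p = 0.0207), 0.241 for MRPL3 (adjusted p = 0.00875) and 0.23 for MRPL39 (adjusted p = 0.0214). They were 0.22 for MRP21 (adjusted p = 0.0497), 0.213 for MRPL33 (adjusted p = 0.0229) and 0.192 for MRP1 (adjusted p = 0.0284). Outside the members they were 0.298 for MNP1, -0.205 for AIM23, 0.226 for MSE1, -0.266 for DLD3 and -0.332 for STE3 (adjusted p = 0.0158, 0.0361, 0.0462, 0.0401 and 0.0361 by limma). After quantile normalization STE3 did not pass (adjusted p = 0.0714).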

How the results depend on the processing

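Counts and medians against wild type turned on the scaling of the arrays. With array medians equal, 26 members were lower at the first restreaking, and the medians of the large and small subunit were -0.0209 and -0.183 there and 0.0665 and -0.00136 at the 12th. After quantile normalization 13 members were higher and 33 lower at the first restreaking and 21 and 19 at the 12th, 1 was lower at the 12th than at the first, and the subunit medians were -0.149 and -0.141, then -0.0228 and -0.0215. The cause was not tested. With 1 array left out, members higher ranged from 21 to 25 (first), 30 to 33 (12th) and 2 to 8 (12th against first), and members lower from 14 to 18, 9 to 13 and 0 to 0. The medians ranged from 0.0571 to 0.103, 0.176 to 0.225 and 0.0961 to 0.124 for the large subunit, and from -0.0864 to -0.0313, 0.0938 to 0.128 and 0.0589 to 0.0958 for the small.

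Deviations of same-numbered arrays correlated at -0.271 to 0.0797 over all genes, and those of differently numbered arrays at -0.186 to 0.309. With 3 or 4 arrays a group, these correlations cannot decide whether replicate numbers pair the samples. With the replicate block 23, 30 and 5 members were higher in the 3 comparisons, and MRPL6 and MRP21 lost their call between the sua5D groups (log2 0.238 and 0.226, adjusted p = 0.0523 and 0.113). Of 40 named results under the alternatives, 30 kept their call under each, none changed sign, and 46 of 806 values lost the call. Against wild type at the 12th restreaking, RSM19 lost it with array medians equal and after quantile normalization (adjusted p = 0.0749 and 0.07). MRPL3, MRPL33, MRP1, MRPL6 and MRP21 lost it between the sua5D groups with first-restreaking replicates 3 and 4 alone (adjusted p = 0.0508 to 0.135), and MRPL39 and MRP21 with replicates 1 and 2 alone (adjusted p = 0.0722 and 0.119). MRP21 also lost it with only the compared groups fitted (adjusted p = 0.0568) and with log2(intensity + 1) (adjusted p = 0.0521).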
